A study of Mus musculus with 6 samples.

Results

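Fatty acid oxidation was examined in immortalized mouse lung endothelial cells (LECs) through 36 genes that code for the enzymes and carriers of the mitochondrial and the peroxisomal pathway. The genes were taken by name from the table of normalized expression values, which holds 20409 gene symbols, and all 36 were found there. By the compartment where textbooks place the protein, 22 are mitochondrial, 8 are peroxisomal, and 6 act in both organelles or elsewhere, namely *Eci2*, *Acad11*, *Crat* and *Mlycd* in both, *Cpt1c* in the endoplasmic reticulum and *Acot1* in the cytosol. The values came from bulk RNA-Seq of 6 libraries, 3 of *Atgl* ECKO LECs and 3 of control LECs. *Atgl* ECKO mice carry the floxed *Atgl* alleles (*Atgl* fl/fl) together with a Cre recombinase driven by the endothelial *Cdh5* promoter, and control mice are *Atgl* fl/fl littermates without the Cre. Both kinds of LECs were isolated from mouse lung by selection for CD31, immortalized with the polyoma middle T antigen and grown in endothelial growth medium with fetal bovine serum, and no library was treated with an agent. Whether the 3 libraries of each genotype stem from separate cultures or from separate animals is not stated in the labels. The p-values therefore reflect only how far these samples spread, and that spread may be technical. Expression is given in CPM, the reads assigned to a gene after scaling every library to the same total.

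Fatty acids are activated to acyl-CoA esters in the cytosol and then follow the mitochondrial or the peroxisomal pathway. For mitochondria, CPT1 at the outer membrane exchanges CoA for carnitine, a carrier takes the acylcarnitine across the inner membrane, and CPT2 restores the acyl-CoA, which is shortened by repeated dehydrogenation, hydration, a second dehydrogenation and thiolysis. Electrons of the first dehydrogenation pass through the electron transfer flavoprotein (ETF) to ubiquinone. Peroxisomes import very long and branched acyl chains through ABC transporters, use oxidases that make hydrogen peroxide in place of the first dehydrogenase, and export shortened chains as carnitine esters or free acids. Adipose triglyceride lipase (ATGL, gene *Pnpla2*) releases fatty acids from stored triglyceride, and in endothelial cells fatty acid oxidation is known as a carbon source for nucleotide synthesis and for redox balance. The comparison of *Atgl* ECKO with control LECs asks how the transcripts of this pathway differ in endothelial cells whose lipase gene was targeted.

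The fit covered the 12837 genes whose mean over the 6 libraries was 1 CPM or more. It was made with limma on log2(CPM + 1), with Benjamini-Hochberg adjustment over all 12837 genes, and a gene was called higher or lower when its adjusted p was under 0.05. A fold change is the difference in mean log2(CPM + 1), *Atgl* ECKO minus control, which understates changes of genes near 1 CPM. In a bulk library, fewer cells of a kind and less RNA per cell cannot be told apart. From the step between the lowest values, 1 CPM rested on 55.6 to 69.1 reads of a library. *Pnpla2*, the targeted gene, had 9.97, 9.11 and 9.13 CPM in *Atgl* ECKO, against 27.6, 26.3 and 30.1 CPM in control LECs (log2 fold change -1.48, limma adjusted p = 1.84e-12, exact two-sided permutation p = 0.1, the smallest that 3 against 3 libraries allow). The libraries fell into the 2 genotypes across the whole table, with correlations of 0.998 to 0.999 within a genotype and 0.963 to 0.964 between genotypes. All 11 endothelial markers examined were measured. Among them, *Cdh5* and *Pecam1* had means of 2100 and 1127 CPM in *Atgl* ECKO, against 1985 and 923 CPM in control LECs. Of the 11, 4 were called higher and 4 lower (36.4% each), against 34.2% and 36.2% of all tested genes. The largest differences among these markers were *Cldn5*, at 110.6 CPM in *Atgl* ECKO and 29.02 CPM in control LECs (log2 fold change 1.90), and *Vwf*, at 57.7 and 148 CPM (-1.35). The genotypes also differed in ways outside the pathway. Genes on chromosomes 12, 14, 16 and 19 had median log2 fold changes of 0.36, 0.45, 0.26 and 0.40, and 4 Y-linked genes, looked up after the values were seen, summed to 1.90 to 2.29 CPM in *Atgl* ECKO libraries, against 172 to 179 CPM in control libraries. Summed leukocyte markers were at 63.5 to 75.0 CPM in *Atgl* ECKO, against 20.2 to 22.9 CPM in control LECs, with 1 of 2 tested markers higher (*Cd68*). Summed lung epithelial markers were at 42.2 to 44.6 CPM in *Atgl* ECKO, against 18.03 to 19.03 CPM in control LECs, with 3 of 3 tested markers higher, while *Epcam*, *Cdh1* and *Sftpb* of the same list stayed under 0.25 CPM in every library. Summed fibroblast, smooth muscle and pericyte markers were at 121 to 143 CPM in *Atgl* ECKO, against 165.3 to 186 CPM in control LECs, with 1 of 3 tested markers higher (*Cnn1*) and 1 lower (*Acta2*). According to the paper, all experiments used male mice. The Y-linked genes and these marker sums differed along with genotype in all 6 libraries. Their part in the results on fatty acid oxidation was not tested and cannot be told apart from that of the targeted gene in this design.

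To place the genes before their values, promoter windows of 300 bases, from 250 before to 50 after the annotated start, were read from RefSeq (GRCm38.p6) for 30 of the 36 genes, as 31 windows. They were searched on both strands for the GC box (GGGCGG), the CCAAT box, the TATA box (TATAAA), the extended half-site AAGGTCA known for estrogen-related receptors (ERR), and a direct repeat of AGGNCA with a single base between the copies (DR1), the form bound by PPAR and RXR. The ERR half-site contains a match to AGGNCA, so those motifs overlap. A GC box was found in 23 of the 31 windows (74.2%), against 35.7% of 32851 promoter windows of the same length, and a CCAAT box in 16 (51.6%), against 37.4%. The ERR half-site was in 1 window (*Acadm*, 3.23%, against 4.72% of all), the TATA box in 1 (*Acot9*, 3.23%, against 13.6%), and the DR1 letters in 0 of 31 windows, against 0.381% of all. The median GC content was 60.7% for the 31 windows and 52.7% for all windows. A match describes letters in the window and is not evidence of binding.

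Windows of 5 genes on which the results turn are printed 5′ to 3′ on the strand of the gene, with capitals at the GC box, the CCAAT box and the ERR half-site in either orientation. *Cpt1a* (chr19:3323051-3323350, + strand) codes for the entry enzyme, *Eci2* (chr13:34994095-34994394, - strand) had the lowest and *Acot2* (chr12:83987611-83987910, + strand) the highest log2 fold change among the 35 tested genes before chromosome medians are removed, *Acadm* (chr3:153944594-153944893, - strand) holds the only ERR half-site, and *Hadhb* (chr5:30155003-30155302, + strand) shares its start region with *Hadha*.
Cpt1a promoter: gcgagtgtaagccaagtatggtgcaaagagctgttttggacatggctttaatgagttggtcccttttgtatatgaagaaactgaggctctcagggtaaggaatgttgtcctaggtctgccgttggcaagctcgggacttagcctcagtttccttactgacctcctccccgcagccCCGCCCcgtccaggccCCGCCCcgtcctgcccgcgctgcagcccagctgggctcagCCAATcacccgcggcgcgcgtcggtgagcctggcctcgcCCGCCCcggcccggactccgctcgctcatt
Eci2 promoter: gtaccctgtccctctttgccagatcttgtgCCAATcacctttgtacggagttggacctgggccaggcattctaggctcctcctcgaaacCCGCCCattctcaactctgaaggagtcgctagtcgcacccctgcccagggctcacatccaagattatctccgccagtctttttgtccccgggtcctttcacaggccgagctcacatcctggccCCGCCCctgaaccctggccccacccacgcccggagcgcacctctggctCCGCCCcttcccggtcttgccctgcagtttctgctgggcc
Acot2 promoter: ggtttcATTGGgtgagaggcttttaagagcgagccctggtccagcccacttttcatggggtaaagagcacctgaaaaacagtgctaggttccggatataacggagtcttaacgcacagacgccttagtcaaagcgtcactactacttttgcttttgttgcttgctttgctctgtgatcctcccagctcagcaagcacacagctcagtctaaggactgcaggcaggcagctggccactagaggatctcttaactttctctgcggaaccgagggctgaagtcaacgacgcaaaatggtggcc
Acadm promoter: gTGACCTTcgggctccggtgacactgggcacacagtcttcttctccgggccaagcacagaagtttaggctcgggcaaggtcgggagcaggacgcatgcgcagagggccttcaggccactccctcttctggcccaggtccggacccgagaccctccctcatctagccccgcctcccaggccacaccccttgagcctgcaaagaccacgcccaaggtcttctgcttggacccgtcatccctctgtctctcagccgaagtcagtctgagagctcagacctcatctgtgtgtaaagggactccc
Hadhb promoter: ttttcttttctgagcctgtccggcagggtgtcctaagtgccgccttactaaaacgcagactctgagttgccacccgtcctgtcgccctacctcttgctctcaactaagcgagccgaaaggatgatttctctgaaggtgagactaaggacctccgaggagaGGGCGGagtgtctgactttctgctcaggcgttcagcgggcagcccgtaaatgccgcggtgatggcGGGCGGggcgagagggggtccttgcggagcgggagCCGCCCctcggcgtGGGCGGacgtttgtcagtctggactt
The *Cpt1a* and *Eci2* windows each hold 3 GC boxes and 1 CCAAT box, the *Hadhb* window holds 4 GC boxes, the *Acot2* window holds 1 CCAAT box and no GC box, and the *Acadm* window holds neither of them. *Hadha*, on the - strand (chr5:30154931-30155230), and *Hadhb* start 273 bases apart and are read in opposite directions, so that their windows share 228 bases.

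Of the 36 genes, 35 passed the filter on low values, and *Acot1* did not. At an adjusted p under 0.05, 28 of the 35 were called, against 70.5% of all tested genes. Of these, 11 were higher in *Atgl* ECKO LECs (31.4% of the 35, against 34.2% of all tested genes) and 17 were lower (48.6%, against 36.2% of all). The libraries of the genotypes did not overlap for 29 of the 35 genes, against 73.1% of all tested genes. Most transcripts of this table differed between the 2 genotypes, and the calls in this pathway stand near that background. The changes were small: the median log2 fold change was -0.10, against -0.01 over all tested genes, the median absolute value was 0.17, against 0.21, and 0 of the 35 genes went past 1 in either direction, against 4.95% of all tested genes. With the median of each chromosome subtracted from the fold changes of its genes, 12 of the 35 were higher and 11 lower.

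**Figure D1:**
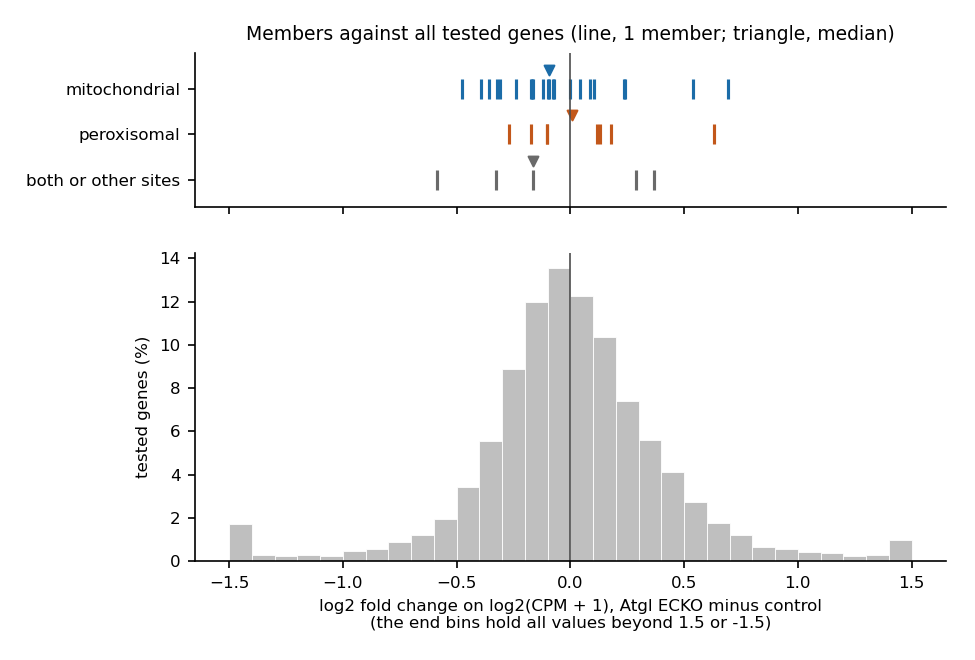
Log2 fold changes (*Atgl* ECKO minus control LECs, log2(CPM + 1) scale) of the 35 tested fatty acid oxidation genes by compartment (top, a line for each gene and a triangle for the median) and of all 12837 tested genes as a histogram in percent of genes (bottom). The pathway genes lie between -0.58 (*Eci2*, percentile 6.0 of all tested genes) and 0.69 (*Acot2*, percentile 95.3).

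The mitochondrial and the peroxisomal genes are described apart. Among the 22 mitochondrial genes, 11 were lower, 5 were higher and 6 were not called, and their median log2 fold change was -0.09. Among the 8 peroxisomal genes, 3 were lower, 4 were higher and 1 was not called, with a median of 0.01. Of all tested genes, 36.2% were lower and 34.2% higher. With chromosome medians removed, 7 mitochondrial genes were lower and 6 higher (median -0.02), and 2 peroxisomal genes were lower and 4 higher (median 0.12). In that setting, 4071 of all 12837 tested genes were lower and 4136 higher (median 0.005). The peroxisomal count of higher genes was 2 without *Atgl* ECKO replicate 2 and also 2 without control replicate 1. Whether the compartments differ from each other was not tested, since no test over the genes of a list was made.

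**Figure D2:**
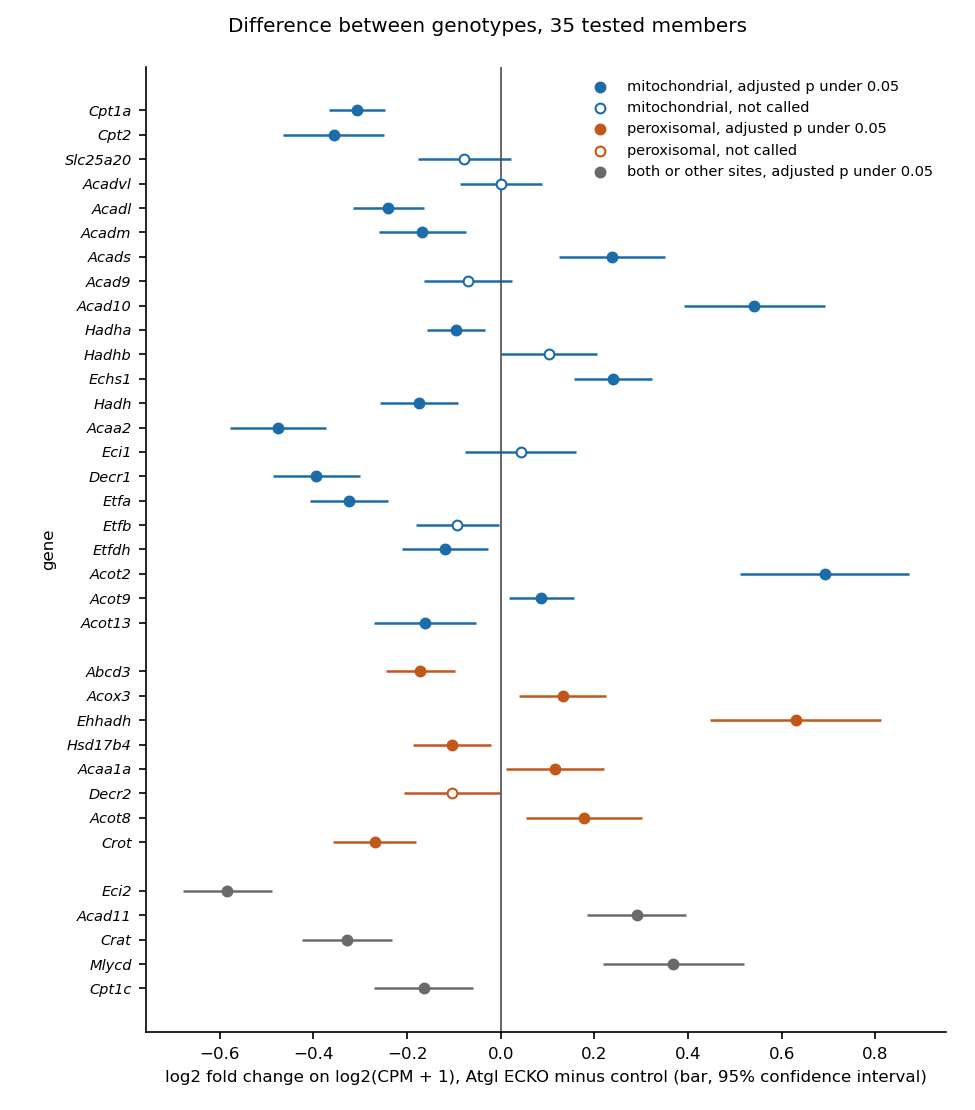
Log2 fold change (*Atgl* ECKO minus control LECs) of the 35 tested genes, in the order of the pathway and grouped by compartment, with 95% confidence intervals from the limma fit (3 libraries per genotype). *Eci2* lies lowest at -0.58 and *Acot2* highest at 0.69, and the 3 genes of carnitine-dependent entry all lie below 0.

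Transcripts of carnitine-dependent entry into mitochondria were lower in *Atgl* ECKO LECs at 2 of its 3 steps. *Cpt1a*, the outer-membrane carnitine palmitoyltransferase that is inhibited by malonyl-CoA and is held to set the rate of the pathway, had 106, 106 and 105 CPM in *Atgl* ECKO, against 131, 132 and 131 CPM in control LECs. The libraries of each genotype lay close together and the genotypes were far apart, so that *Cpt1a* was at 80.6% of the control mean (log2 fold change -0.31 with a standard error of 0.03, limma adjusted p = 9.23e-08). Genes of chromosome 19, where *Cpt1a* lies, had a median of 0.40, and relative to that median its log2 fold change was -0.71. *Cpt2*, the inner-membrane enzyme that restores the acyl-CoA, had 12.5, 11.6 and 11.1 CPM in *Atgl* ECKO, against 15.2, 15.2 and 15.4 CPM in control LECs. Every *Atgl* ECKO library was lower, at 76.7% of the control mean (log2 fold change -0.36, adjusted p = 1.23e-05 by limma). The carrier between the 2 enzymes, the carnitine-acylcarnitine translocase *Slc25a20*, had 21.8, 21.7 and 19.6 CPM in *Atgl* ECKO, against 22.5, 22.1 and 22.1 CPM in control LECs. All 3 *Atgl* ECKO libraries lay below the control libraries, 2 of them by under 1 CPM, and the difference did not pass the test (log2 fold change -0.08, 95% interval -0.18 to 0.02, limma adjusted p = 0.15).

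The 3 isoforms of CPT1 stood at unlike levels. Per kilobase of transcript, *Cpt1a* was at 24.5 CPM in *Atgl* ECKO and 30.4 CPM in control LECs, *Cpt1c*, the isoform of the endoplasmic reticulum best known from neurons, at 6.60 and 7.45 CPM, and *Cpt1b*, the muscle isoform, at 0.584 and 0.403 CPM. *Cpt1c* had 19.2, 17.9 and 18.2 CPM in *Atgl* ECKO, against 21.0, 19.5 and 21.9 CPM in control LECs, and its libraries did not overlap (log2 fold change -0.17, adjusted p = 0.00761 by limma, 0.0617 without moderation of the variances). *Cpt1b*, outside the 36 genes, averaged 1.69 ± 0.495 CPM in *Atgl* ECKO and 1.17 ± 0.141 CPM in control LECs (SD, n = 3 each; log2 fold change 0.30, limma adjusted p = 0.0322, and 0.22 with an adjusted p of 0.114 with chromosome medians removed). *Atgl* ECKO replicate 3, at 1.13 CPM, lay among the control libraries for *Cpt1b*.

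The acyl-CoA dehydrogenases, which open each turn of the mitochondrial spiral and differ in the chain length they prefer, did not move one way. Of the 4 enzymes named for chain length, 2 were lower, 1 was higher and 1 was not called. *Acadvl*, the very-long-chain enzyme, had 29.8, 28.5 and 27.4 CPM in *Atgl* ECKO, against 29.1, 28.6 and 27.95 CPM in control LECs. The genotypes overlapped fully, with a log2 fold change of 0.00 (95% interval -0.09 to 0.09, limma adjusted p = 0.997). *Acadl*, the long-chain enzyme, had 70.2, 69.5 and 65.1 CPM in *Atgl* ECKO, against 81.2, 78.6 and 82.5 CPM in control LECs, and was the most abundant of the 4 per kilobase, at 35.6 CPM in *Atgl* ECKO and 42.2 CPM in control LECs. It was lower in every *Atgl* ECKO library (log2 fold change -0.24, adjusted p = 2.08e-05 by limma). *Acadm*, the medium-chain enzyme, averaged 22.04 ± 0.812 CPM in *Atgl* ECKO and 24.9 ± 0.887 CPM in control LECs (SD, n = 3 each). Its log2 fold change of -0.17 passed the test (limma adjusted p = 0.00311), but not with chromosome medians removed (adjusted p = 0.0934). *Acads*, the short-chain enzyme, had 14.1, 14.1 and 13.5 CPM in *Atgl* ECKO, against 10.9, 12.2 and 11.9 CPM in control LECs. All 3 *Atgl* ECKO libraries were higher, with a log2 fold change of 0.24 (adjusted p = 9.39e-04 by limma).

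The ratio of *Acads* to *Acadl* put the opposite calls of the short-chain and the long-chain enzyme in a single value per library. It was 0.202, 0.203 and 0.207 in *Atgl* ECKO, against 0.134, 0.156 and 0.145 in control LECs, a log2 difference of 0.50. The ratio was chosen after the values were seen and is given as a description. Both remaining family members among the mitochondrial genes are less well known as enzymes of bulk oxidation. *Acad9*, which is also an assembly factor of respiratory complex I, averaged 32.2 ± 1.92 CPM in *Atgl* ECKO and 33.8 ± 0.827 CPM in control LECs (SD, n = 3 each) and was not called (log2 fold change -0.07, limma adjusted p = 0.17). *Acad10*, a family member with an added kinase-like domain, had 10.5, 10.5 and 9.39 CPM in *Atgl* ECKO, against 7.46, 6.01 and 6.52 CPM in control LECs. Every *Atgl* ECKO library lay above every control library, at 152% of the control mean (log2 fold change 0.54, adjusted p = 5.18e-06 by limma), the next highest fold change of the mitochondrial genes after *Acot2*.

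The mitochondrial trifunctional protein, which carries out the last 3 reactions on long chains, is built from *Hadha* (hydratase and dehydrogenase) and *Hadhb* (thiolase), whose genes share the start region printed above. *Hadha* had 121, 119 and 118 CPM in *Atgl* ECKO, against 126, 127 and 130 CPM in control LECs, and was lower in all 3 *Atgl* ECKO libraries (log2 fold change -0.10, limma adjusted p = 0.00803). *Hadhb* had 24.3, 24.97 and 24.6 CPM in *Atgl* ECKO, against 24.5, 21.3 and 22.8 CPM in control LECs. Control replicate 1 lay between the *Atgl* ECKO libraries and the other two control libraries lay below them, and *Hadhb* was not called (log2 fold change 0.10, 95% interval 0.00 to 0.21, adjusted p = 0.0678 by limma). The gene calls of this pair turn on the setting: with chromosome medians removed *Hadha* was no longer called (limma adjusted p = 0.852) while *Hadhb* was called higher (adjusted p = 0.00244), and *Hadhb* was also called without control replicate 1 (adjusted p = 0.0113) and after rescaling by median ratios (adjusted p = 0.0476) or quantile normalization (adjusted p = 0.0384). The ratio of *Hadhb* to *Hadha* was 0.2003, 0.210 and 0.209 in *Atgl* ECKO, against 0.194, 0.169 and 0.176 in control LECs (log2 difference 0.20), so the groups of libraries did not overlap in the ratio, which was chosen after the values were seen and is given as a description.

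The enzymes that act on shorter chains after the first dehydrogenation gave calls in both directions. *Acaa2*, the mitochondrial 3-ketoacyl-CoA thiolase of the last reaction, had 12.8, 11.7 and 12.5 CPM in *Atgl* ECKO, against 17.4, 17.5 and 17.6 CPM in control LECs. It was at 70.3% of the control mean, and every *Atgl* ECKO library lay well below every control library (log2 fold change -0.48, limma adjusted p = 2.92e-07). *Hadh*, the 3-hydroxyacyl-CoA dehydrogenase for medium and short chains, averaged 35.5 ± 1.18 CPM in *Atgl* ECKO and 40.2 ± 1.41 CPM in control LECs (SD, n = 3 each; log2 fold change -0.17, adjusted p = 9.81e-04 by limma). *Echs1*, the short-chain enoyl-CoA hydratase, averaged 35.3 ± 1.05 CPM in *Atgl* ECKO and 29.7 ± 0.836 CPM in control LECs and was higher (SD, n = 3 each; log2 fold change 0.24, limma adjusted p = 5.28e-05). Unsaturated chains need auxiliary enzymes. *Decr1*, the 2,4-dienoyl-CoA reductase, had 16.2, 15.6 and 16.1 CPM in *Atgl* ECKO, against 20.9, 21.1 and 21.9 CPM in control LECs. *Decr1* was lower in all *Atgl* ECKO libraries, at 75.0% of the control mean (log2 fold change -0.39, adjusted p = 8.04e-07 by limma), while *Eci1*, an isomerase of enoyl-CoA double bonds, averaged 16.4 ± 0.246 CPM in *Atgl* ECKO and 15.9 ± 1.35 CPM in control LECs and was not called (log2 fold change 0.04, adjusted p = 0.511).

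Transcripts of the electron route to ubiquinone were lower or not called at each of its 3 genes. *Etfa*, the alpha subunit of ETF, had 30.5, 29.5 and 29.2 CPM in *Atgl* ECKO, against 38.8, 36.4 and 37.0 CPM in control LECs. All *Atgl* ECKO libraries were lower, at 79.3% of the control mean (log2 fold change -0.32, limma adjusted p = 1.99e-06). *Etfb*, the beta subunit, averaged 26.7 ± 0.586 CPM in *Atgl* ECKO and 28.6 ± 1.13 CPM in control LECs (SD, n = 3 each; log2 fold change -0.09, adjusted p = 0.0564 by limma, 0.0223 without control replicate 1). *Etfdh*, the ubiquinone oxidoreductase that accepts the electrons, averaged 30.6 ± 1.72 CPM in *Atgl* ECKO and 33.2 ± 0.544 CPM in control LECs (SD, n = 3 each; log2 fold change -0.12, limma adjusted p = 0.0223), and this call was lost with chromosome medians removed (adjusted p = 0.446) and without *Atgl* ECKO replicate 3 (adjusted p = 0.12), control replicate 1 (0.0540) or control replicate 3 (0.0525). The subunits of ETF form a dimer with a copy of each. The ratio of *Etfb* to *Etfa* was 0.890, 0.883 and 0.927 in *Atgl* ECKO, against 0.702, 0.799 and 0.792 in control LECs (log2 difference 0.24), again a ratio chosen after the values were seen. An exact two-sided permutation test of the 3 ratios gave p = 0.1 for each (0.1 also after adjustment over the 3), the smallest that 3 against 3 libraries allow, so none could pass the threshold.

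The mitochondrial thioesterases, which split acyl-CoA into free fatty acid and CoA, include the gene with the highest fold change of the pathway on the log2(CPM + 1) scale. *Acot2*, the matrix thioesterase for long chains, had 7.25, 6.52 and 6.03 CPM in *Atgl* ECKO, against 4.07, 3.10 and 3.96 CPM in control LECs. The lowest *Atgl* ECKO library exceeded the highest control library, and the mean was at 178% of control (log2 fold change 0.69, limma adjusted p = 2.59e-06). Genes of chromosome 12, where *Acot2* lies, had a median of 0.36, and relative to that median its log2 fold change was 0.33 (adjusted p = 0.00353), under those of *Acad10* (0.63), *Acot8* (0.41), *Acad11* (0.39) and *Ehhadh* (0.37) by the same measure. *Acot1*, its near-identical cytosolic neighbour in the gene family, had 0.749, 0.817 and 0.757 CPM in *Atgl* ECKO, against 0.634, 0.851 and 0.637 CPM in control LECs. Control replicate 2 was the highest of the 6 libraries for *Acot1*, which lay under the filter of 1 CPM and was not tested. Reads of *Acot1* and *Acot2* can be assigned to either gene, so the split between them is uncertain. *Acot9*, an X-linked mitochondrial thioesterase, averaged 63.6 ± 0.388 CPM in *Atgl* ECKO and 59.9 ± 1.61 CPM in control LECs (SD, n = 3 each; log2 fold change 0.09, adjusted p = 0.0272 by limma), a call that was lost without *Atgl* ECKO replicate 1 (adjusted p = 0.0566), *Atgl* ECKO replicate 2 (0.0875), control replicate 2 (0.0637) or control replicate 3 (0.0972). *Acot13* averaged 9.57 ± 0.315 CPM in *Atgl* ECKO and 10.8 ± 0.188 CPM in control LECs (SD, n = 3 each) and was lower (log2 fold change -0.16, limma adjusted p = 0.0102), but was not called with chromosome medians removed (adjusted p = 0.491).

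**Figure D3:**
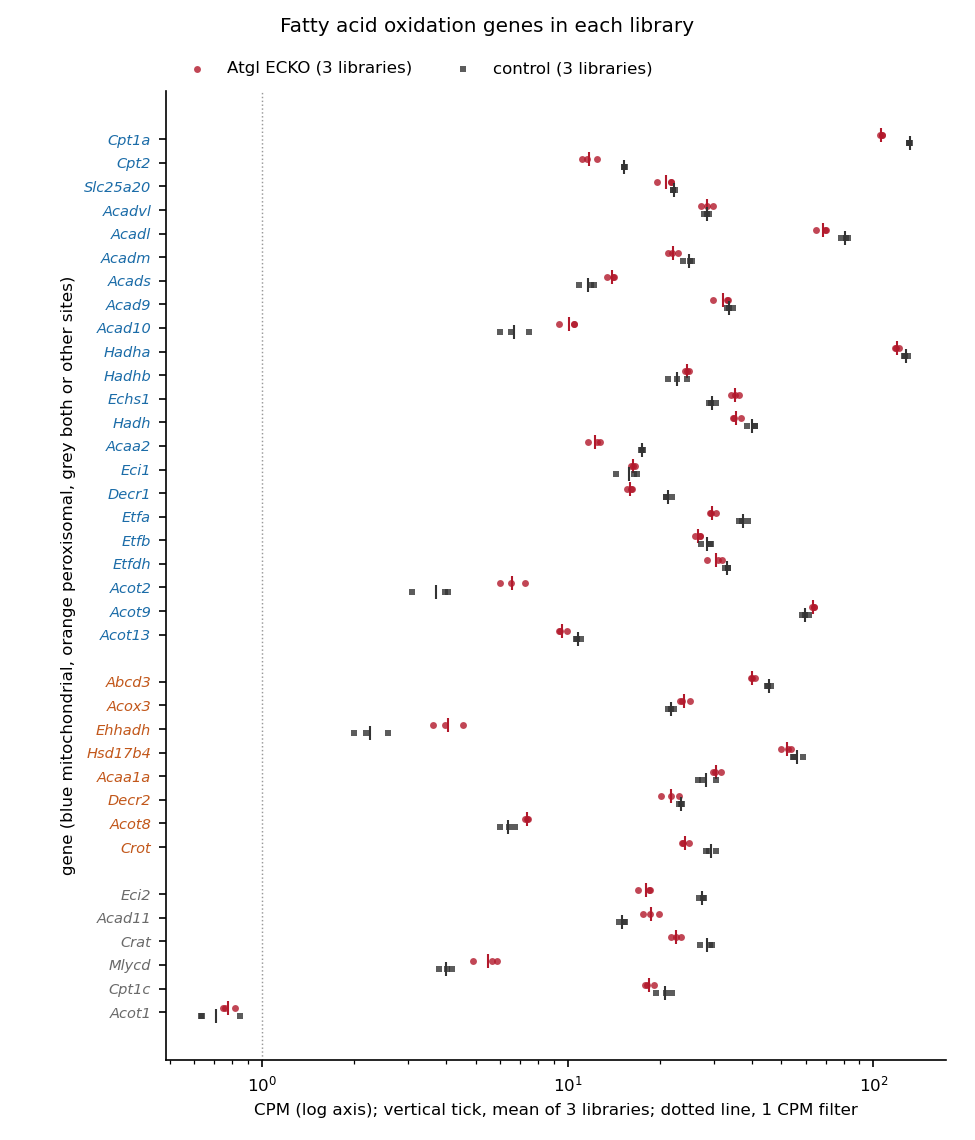
Expression of the fatty acid oxidation genes in each of the 6 libraries, in CPM on a logarithmic axis, with *Atgl* ECKO above control in each row and 3 points per genotype. *Cpt1a* sits at 105 to 106 CPM in *Atgl* ECKO and at 131 to 132 CPM in control LECs, and *Ehhadh* at 3.63 to 4.55 CPM in *Atgl* ECKO and at 2.01 to 2.59 CPM in control LECs.

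On the peroxisomal side, the transcript of entry was lower and those of the spiral were mostly higher in *Atgl* ECKO LECs. *Abcd3*, the ABC transporter known as PMP70 that imports acyl-CoA, averaged 40.2 ± 0.6003 CPM in *Atgl* ECKO and 45.4 ± 0.827 CPM in control LECs (SD, n = 3 each; log2 fold change -0.17, limma adjusted p = 3.48e-04). Of the 4 enzymes of the spiral, 3 were higher and 1 was lower, but only the call of *Ehhadh* was kept under every other setting in which the gene was tested. *Ehhadh*, the L-bifunctional enzyme, had 3.63, 4.55 and 3.98 CPM in *Atgl* ECKO, against 2.59, 2.19 and 2.01 CPM in control LECs. Every *Atgl* ECKO library was above every control library, at 179% of the control mean (log2 fold change 0.63, adjusted p = 8.54e-06 by limma). The median over chromosome 16, where *Ehhadh* lies, was 0.26, and relative to it the log2 fold change was 0.37 (adjusted p = 0.00170).

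The other bifunctional enzyme, *Hsd17b4*, which handles D-hydroxyacyl and branched chains, averaged 52.1 ± 2.05 CPM in *Atgl* ECKO and 56.0 ± 2.29 CPM in control LECs (SD, n = 3 each). Its log2 fold change of -0.10 passed the test (limma adjusted p = 0.0278), yet with the median of chromosome 18 removed it was 0.02 (adjusted p = 0.670), and the call was also lost without *Atgl* ECKO replicate 3 (0.131) or control replicate 1 (0.145). Per kilobase, *Hsd17b4* stood at 19.4 CPM in *Atgl* ECKO and 20.9 CPM in control LECs, far above *Ehhadh* at 1.36 and 0.76 CPM. *Acox3*, an acyl-CoA oxidase of branched chains, averaged 23.98 ± 0.978 CPM in *Atgl* ECKO and 21.8 ± 0.540 CPM in control LECs (SD, n = 3 each; log2 fold change 0.13, adjusted p = 0.0130 by limma, 0.0850 without *Atgl* ECKO replicate 2). *Acaa1a*, the peroxisomal thiolase, averaged 30.7 ± 1.05 CPM in *Atgl* ECKO and 28.3 ± 2.06 CPM in control LECs (SD, n = 3 each). Control replicate 3 exceeded 2 of the *Atgl* ECKO libraries, and the call of *Acaa1a* (log2 fold change 0.12, limma adjusted p = 0.0469) was lost when any library but control replicate 3 was left out, with adjusted p of 0.0505 to 0.204. Reads of *Acaa1a* can be shared with its close copy *Acaa1b*.

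The remaining 3 peroxisomal genes act beside or after the spiral. *Crot*, the carnitine octanoyltransferase that turns shortened chains into carnitine esters for export to mitochondria, had 24.97, 23.9 and 23.6 CPM in *Atgl* ECKO, against 30.5, 28.4 and 29.1 CPM in control LECs. All *Atgl* ECKO libraries were lower, at 82.4% of the control mean (log2 fold change -0.27, adjusted p = 3.07e-05 by limma). *Acot8*, a peroxisomal thioesterase, averaged 7.35 ± 0.0763 CPM in *Atgl* ECKO and 6.39 ± 0.351 CPM in control LECs (SD, n = 3 each) and was higher (log2 fold change 0.18, limma adjusted p = 0.0132, 0.0697 without control replicate 1). *Decr2*, the peroxisomal dienoyl-CoA reductase, averaged 21.8 ± 1.49 CPM in *Atgl* ECKO and 23.4 ± 0.293 CPM in control LECs and was not called (SD, n = 3 each; log2 fold change -0.10, adjusted p = 0.0673 by limma), though it was called lower without *Atgl* ECKO replicate 1 (adjusted p = 0.0124).

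The genes whose products work in both organelles include the gene with the lowest fold change of the 35 tested, *Eci2*. *Eci2*, an enoyl-CoA isomerase of peroxisomes and mitochondria that is needed for unsaturated chains, had 18.5, 18.6 and 17.0 CPM in *Atgl* ECKO, against 27.7, 26.9 and 27.97 CPM in control LECs. The genotypes were well apart, with *Atgl* ECKO at 65.5% of the control mean (log2 fold change -0.58, limma adjusted p = 1.17e-08, and -0.46 relative to chromosome 13, a measure by which *Cpt1a* was lower still at -0.71). *Crat*, the carnitine acetyltransferase that buffers acetyl-CoA, had 23.5, 22.5 and 21.7 CPM in *Atgl* ECKO, against 29.6, 27.2 and 29.2 CPM in control LECs. Every *Atgl* ECKO library was lower (log2 fold change -0.33, adjusted p = 8.97e-06 by limma), but chromosome 2, on which *Crat* lies, had a median of -0.23, and relative to it the log2 fold change was -0.10 (adjusted p = 0.0656). *Acad11*, an acyl-CoA dehydrogenase reported in both organelles, had 19.9, 18.5 and 17.7 CPM in *Atgl* ECKO, against 15.4, 14.7 and 15.3 CPM in control LECs. *Mlycd*, the decarboxylase that removes malonyl-CoA, the inhibitor of CPT1, had 5.87, 5.66 and 4.91 CPM in *Atgl* ECKO, against 3.81, 4.03 and 4.20 CPM in control LECs. *Acad11* and *Mlycd* were higher in all *Atgl* ECKO libraries, with log2 fold changes of 0.29 (limma adjusted p = 8.15e-05) and 0.37 (limma adjusted p = 2.48e-04).

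Grouped across compartments after the values were seen, the 5 carnitine acyltransferases among the 36 genes (*Cpt1a*, *Cpt1c*, *Cpt2*, *Crat* and *Crot*) were all lower, at 76.7% to 88.6% of the control mean. Of all tested genes, 36.2% were called lower. The group describes these 5 genes and was not tested as a set. The calls of *Cpt1a*, *Cpt2* and *Crot* held with chromosome medians removed (log2 fold changes of -0.71, -0.26 and -0.18), as did that of *Cpt1c* at the edge of the threshold (-0.12, limma adjusted p = 0.0498), while that of *Crat* did not. The muscle isoform *Cpt1b*, the sixth such enzyme measured, had a higher mean at a low level, a call lost with chromosome medians removed.

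Levels spanned a wide range. Per kilobase of transcript, the 5 highest of the 36 genes in control LECs were *Acadl* (35.6 CPM in *Atgl* ECKO and 42.2 CPM in control LECs), *Acot9* (36.3 and 34.2 CPM), *Etfb* (29.9 and 32.0 CPM), *Hadha* (29.7 and 31.7 CPM) and *Cpt1a* (24.5 and 30.4 CPM). *Etfb* and *Hadha* differed by less than the spread of *Etfb* between control libraries. The lowest were *Acot1* (0.341 CPM in *Atgl* ECKO and 0.311 CPM in control LECs), *Ehhadh* (1.36 and 0.76 CPM), *Acot2* (3.01 and 1.69 CPM), *Acad10* (2.65 and 1.74 CPM) and *Mlycd* (2.57 and 1.88 CPM), and among the last 3, neighbours differed in control LECs by less than the spread of *Acad10*. The 4 tested genes among these lowest 5 were all higher in *Atgl* ECKO LECs, as was seen after ranking and not tested. The lowest of the tested genes, *Ehhadh*, still rested on at least 122 reads per library.

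**Figure D4:**
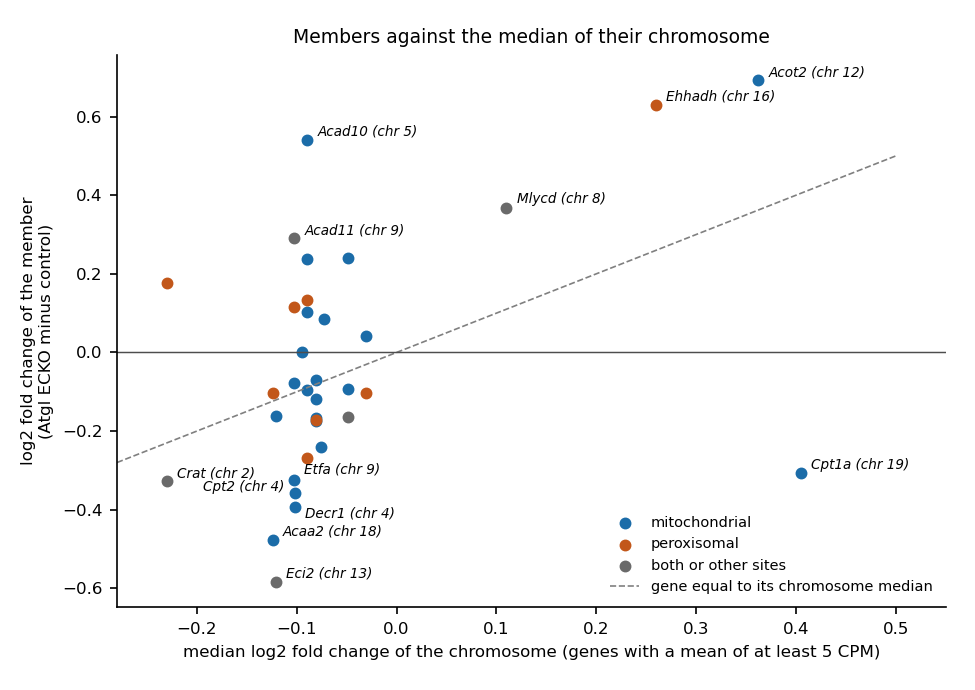
Log2 fold change of each of the 35 tested genes against the median log2 fold change of the genes on its chromosome (genes averaging 5 CPM or more), coloured by compartment, with a dashed line where both are equal. *Cpt1a* at -0.31 lies far under the chromosome 19 median of 0.40, while *Acot2* and *Ehhadh* lie above the positive medians of their chromosomes.

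Across the 36 genes, chromosomes with a median above 0.25 carried 3 tested genes, *Cpt1a*, *Acot2* and *Ehhadh*. The other 32 tested genes (9 higher, 16 lower) had a median log2 fold change of -0.10. Their chromosomes had medians from -0.23 (chromosome 2) to 0.11 (chromosome 8). Of all tested genes, on any chromosome, 34.2% were higher and 36.2% lower, with a median of -0.01. Of the 28 calls, 17 were made in the same direction under each of 16 other settings in which the gene was tested, and 21 under all of these but the removal of chromosome medians.

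Further genes of the same pathways, from lists of related genes, gave calls in both directions as well. Of 20 other tested genes of peroxisomal oxidation, 6 were higher and 8 lower. *Abcd2*, a transporter of very long chains, was at 0.496 CPM in *Atgl* ECKO and 2.75 CPM in control LECs (log2 fold change -1.33, adjusted p = 1.25e-09 by limma). Catalase (*Cat*), which removes the peroxide that the oxidases make, was at 94.8 CPM in *Atgl* ECKO and 125 CPM in control LECs (log2 fold change -0.39), and *Phyh*, of phytanic acid alpha-oxidation, at 8.48 and 12.3 CPM (-0.49). *Hacl1*, the lyase that follows *Phyh* in alpha-oxidation, was at 4.93 CPM in *Atgl* ECKO and 2.43 CPM in control LECs (0.79), and *Acot6* at 3.96 and 1.91 CPM (0.77). Chromosome medians bear on genes of both directions. With these medians removed, *Hacl1* (chromosome 14) was at 0.35 and *Acot6* (chromosome 12) at 0.41, and on chromosome 2 *Cat* was at -0.16 and *Phyh* at -0.26, all still called. Of 19 other tested genes listed under mitochondrial acyl-CoA oxidation, 4 were higher (21.1%) and 8 lower (42.1%). That list goes beyond fatty acid oxidation and also holds enzymes of amino acid breakdown. The lower genes included *Ivd* of leucine breakdown (48.6 CPM in *Atgl* ECKO and 70.0 CPM in control LECs, log2 fold change -0.52, and -0.29 with the median of chromosome 2 removed) and *Acot11* (7.50 and 22.1 CPM, -1.44). Of 16 tested peroxins, which build peroxisomes, 4 were higher and 6 lower, and their median log2 fold change was 0.00.

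The supply of carnitine and malonyl-CoA bears on the CPT1 step. Of 5 tested genes of carnitine supply, 0 were higher and 2 lower (*Slc22a5* and *Aldh9a1*) by limma, close to the 36.2% of all tested genes called lower. The plasma membrane carnitine transporter *Slc22a5* averaged 8.02 ± 0.520 CPM in *Atgl* ECKO and 10.6 ± 0.511 CPM in control LECs (SD, n = 3 each; log2 fold change -0.36, limma adjusted p = 5.69e-05). *Aldh9a1*, an enzyme of carnitine synthesis, averaged 51.0 ± 1.87 CPM in *Atgl* ECKO and 65.5 ± 0.807 CPM in control LECs (SD, n = 3 each; log2 fold change -0.35, adjusted p = 2.23e-07 by limma). Of 12 tested genes of malonyl-CoA and AMPK control, 5 were higher and 5 lower (41.7% each), against 34.2% and 36.2% of all tested genes. *Acaca*, the carboxylase that makes malonyl-CoA in the cytosol, had 42.9, 44.2 and 45.4 CPM in *Atgl* ECKO, against 30.7, 32.0 and 30.1 CPM in control LECs, and was higher in every *Atgl* ECKO library (log2 fold change 0.50, limma adjusted p = 1.21e-08). *Acacb*, the carboxylase known from the mitochondrial outer membrane and named here after its values were seen, was lower (3.94 CPM in *Atgl* ECKO and 4.85 CPM in control LECs, log2 fold change -0.24, limma adjusted p = 0.00319). *Camkk2*, a kinase that activates AMPK, was lower (34.5 CPM in *Atgl* ECKO and 55.3 CPM in control LECs, log2 fold change -0.67, adjusted p = 4.99e-10). Of 9 tested transcriptional regulators of the pathway, 3 were higher (33.3%, against 34.2% of all tested genes) and 2 lower (22.2%, against 36.2%). The lower ones were *Pparg* (6.27 CPM in *Atgl* ECKO and 19.3 CPM in control LECs, log2 fold change -1.49, limma adjusted p = 1.08e-12) and its partner *Rxra* (51.9 and 66.0 CPM, -0.34). The higher ones were *Pprc1*, a coactivator, at 0.40, *Esrra*, which codes for an ERR, at 0.26, and *Tfam*, a factor of mitochondrial DNA, at 0.23. With chromosome medians removed, *Pparg* was at -1.52 and *Rxra* at -0.11, while *Pprc1* was at -0.01 (limma adjusted p = 0.880), *Tfam* at 0.04 (limma adjusted p = 0.515) and *Esrra* at -0.15, the other way.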

How the data were processed

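RNA-Seq values of untreated LECs, 3 *Atgl* ECKO and 3 control libraries, were taken from a single table. The authors deposited normalized gene values in CPM, made from reads aligned with STAR and assigned to genes by Partek E/M, with versions not given in the sources used here. Human build hg19 is named in the methods, although the table holds mouse symbols. Every value includes an offset of 0.0001 CPM. The 21 lines with a date in place of a symbol were left out, and the deposited z-scores were not used. The values are not whole reads, so no test on counts was made.

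The tool was limma 3.58.1 (R 4.3.3), run as lmFit and eBayes with its trend option on log2(CPM + 1) for the 12837 genes averaging 1 CPM or more, with genotype as the only term, 4 residual and 10.9 prior degrees of freedom and 95% confidence intervals. The procedure was tried on simulated data in which few genes were changed. In the real values 70.5% of tested genes were called, so that trial does not check the calls made here. Chromosomes were matched by symbol to GENCODE M21 for 99.2% of tested genes, and CPM per kilobase used the longest protein-coding transcript there. Medians of chromosomes used genes with at least 5 CPM.

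The 36 genes, the further lists and the alternatives were chosen with earlier results of these data known. The alternatives were pseudocounts of 0.1 and 3 CPM, no filter or a filter at 5 CPM, quantile normalization or rescaling by median ratios, a fit without the trend or without moderation of the variances, a replicate block, each library left out, and removal of chromosome medians. Library values are given for called members with an absolute log2 fold change of at least 0.25, for *Cpt1a*, *Cpt2*, *Slc25a20*, *Acadvl*, *Hadha* and *Hadhb*, and for members under the filter, and from each further list at most 6 called genes with the smallest adjusted p are named, plus *Pnpla2*, *Cpt1b* and *Acaca*. Some genes that this rule would name are not reported here. The library values of *Acadl*, *Acads* and *Cpt1c* and the ratios were added after the values were seen.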

Additional observations from a re-analysis of the deposited data

How the results depend on the processing

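The replicate block changed 0 of the 35 calls among the fatty acid oxidation genes (5 mitochondrial genes higher and 11 lower), and the replicate numbers did not pair the samples, with correlations of 0.0864, 0.0909 and -0.1509 between the deviations of same-numbered libraries. Of the 35 tested genes, 21 had the same call under all 16 alternatives in which they were tested and 26 when any single library was left out. With chromosome medians removed, 7 mitochondrial genes were lower in place of 11, as were 4071 of all tested genes in place of 4649. The mitochondrial median moved to -0.0227, the peroxisomal median to 0.12 and *Hsd17b4* to 0.0201. With a filter at 5 CPM, which drops *Ehhadh* and *Mlycd* from testing, the peroxisomal median was -0.10 and 1 gene of other sites was higher in place of 2. Over the fits that left out a library, 2 to 4 peroxisomal genes were higher and the peroxisomal median ran from -0.0123 (without *Atgl* ECKO replicate 1) to 0.0303. The cause was not tested. Depth sets a limit only for *Acot1*, at 42 reads in its lowest library and under the filter.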

Other observations

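Pathways that take up the products of fatty acid oxidation were also measured. The enzymes of propionyl-CoA disposal, which use the last piece of odd and branched chains, were higher or not called: of 6 tested, 4 were higher and 0 lower by limma, with *Pcca*, the alpha subunit of propionyl-CoA carboxylase, at 16.6 ± 0.379 CPM in *Atgl* ECKO and 8.65 ± 0.386 CPM in control LECs (SD, n = 3 each; log2 fold change 0.87, limma adjusted p = 4.55e-10). The median over chromosome 14, where *Pcca* lies, was 0.45, and with it removed *Pcca* was at 0.42. *Oxct1*, the ketone body enzyme that activates acetoacetate, was higher with a log2 fold change of 0.36 (limma adjusted p = 6.05e-08). Of 17 tested genes of the tricarboxylic acid cycle, 6 were higher and 4 lower, with *Mdh2* at -0.40 and *Dld* at 0.32 on the log2 scale (-0.31 and -0.04 with chromosome medians removed). Against the 70.5% of all tested genes that were called, these counts describe the lists and single out none of them.

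Flavin supply and ETF assembly, which serve the electron route of the acyl-CoA dehydrogenases, gave calls in both directions. Of 7 tested genes, 2 were higher and 4 lower, against 34.2% and 36.2% of all tested genes. *Etfbkmt*, the methyltransferase that modifies the beta subunit of ETF, averaged 3.65 ± 0.310 CPM in *Atgl* ECKO and 8.27 ± 0.152 CPM in control LECs (SD, n = 3 each; log2 fold change -0.996, limma adjusted p = 1.55e-09). The riboflavin transporters *Slc52a3* and *Slc52a2* were lower, at -0.68 and -0.37 on the log2 scale. The higher genes were *Etfrf1*, a regulator of ETF, at 0.43 (limma adjusted p = 1.95e-06) and *Flad1*, which makes FAD, at 0.25 (limma adjusted p = 7.76e-04).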
